A study of Mus musculus with 22 samples.

Results

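Skeletal muscle genes were followed through RNA prepared from bone. The 51 genes described here encode parts of the sarcomere, the contractile unit of striated muscle, or of the calcium and energy supply around it, and they were taken by symbol from a list fixed by function, with titin (Ttn) as the marker gene. All 51 of 51 were found among the 25471 genes in the tables, and all 51 passed the filter on low counts that left 18793 genes to test. They fell into 14 genes of the Z-disc and elastic scaffold, 12 of the thin filament, 13 of the thick filament, 10 of calcium handling and 2 of energy and oxygen supply. RNA was taken from the ulna, a bone of the forearm cut to its middle section, in 11 mice and sequenced as 22 total RNA libraries. 4 mice carried a conditional knockout (CKO) of Tlr4, an innate immune receptor, and gave 4 loaded right and 4 non-loaded left ulnae, while 7 wildtype (WT) mice gave 7 loaded right and 7 non-loaded left ulnae. Load and body side therefore cannot be told apart in any limb difference below. The series title puts the receptor in osteoblasts, the bone-forming cells. The labels name no Cre line, strain, sex, age, loading regime or time of harvest, so the limits of the knockout as a model cannot be stated further.

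A sarcomere slides thin filaments of actin, tropomyosin and troponin past thick filaments of myosin, between Z-discs that anchor the thin filaments. Troponin binds calcium that the ryanodine receptor releases from the sarcoplasmic reticulum and that a calcium pump returns to it. Mammalian limb muscle mixes slow fibres, built with slow or cardiac-type isoforms, and fast fibres, which use a separate gene for most of these parts and differ among themselves in the fast myosin heavy chain they carry. Mechanical strain on muscle is known to raise several Z-disc repair and sensor genes.

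Libraries held 21999891 to 42833729 counts. Tlr4 itself, measured over the whole gene, lay at 24.9 to 32.4 CPM in the CKO loaded, 29.3 to 33.8 CPM in the CKO non-loaded, 28.9 to 42.2 CPM in the WT loaded and 24.9 to 39.4 CPM in the WT non-loaded libraries. CPM here are counts scaled to library size after TMM normalisation (edgeR). Ltbp2, chosen as a check of the labels after its values were seen, lay at 205 to 344 CPM in 7 of the 8 CKO libraries and at 26.5 to 73.5 CPM in 13 of the 14 WT libraries. The library labelled CKO loaded 688 had 38.4 CPM, within the range of those WT libraries. The library labelled WT loaded 686 had 380 CPM, above the range of those CKO libraries and far from that of the WT ones. Several loading results below are also given without these mice. The bone list (7 of 7 genes detected) summed to 2192 to 7807 CPM in CKO loaded, 2537 to 7645 in CKO non-loaded, 2490 to 13238 in WT loaded and 3270 to 21816 in WT non-loaded libraries. Markers of heart muscle were near 0: 5 of 7 were in the tables, and their sum was between 2.47 and 16.8 CPM in any library.

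Muscle RNA was a large and uneven part of every library. The 51 genes held 13.3, 14.97, 15.04 and 19.2% of all counts in the CKO loaded libraries of mice 688, 691, 693 and 698, against 17.3, 3.46, 12.4 and 12.2% in the CKO non-loaded libraries of the same mice. In WT loaded libraries the share lay between 6.87 and 17.2% with a median of 12.6%, and in WT non-loaded libraries between 5.54 and 15.7% with a median of 13.2%. The groups overlapped in both genotypes. The lowest shares stood in CKO non-loaded 691, WT non-loaded 699 and WT loaded 694. In bulk RNA, fewer muscle fibres and less RNA per fibre cannot be told apart. The share averaged 15.6 ± 2.54% (SD, n = 4) in CKO loaded libraries, against 11.3 ± 5.76% (n = 4) in CKO non-loaded libraries, and 12.2 ± 3.04% in WT loaded and 12.2 ± 3.51% in WT non-loaded libraries (SD, n = 7 each).

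Within a mouse, the 2 limbs could differ more than the groups did. The loaded limb exceeded the non-loaded one by 11.5 percentage points in CKO mouse 691 and by 7.002 in CKO mouse 698, but the difference was 2.64 points in mouse 693 and -4.03 in mouse 688. Among WT mice it ran between -6.31 points in mouse 694 and 6.23 points in mouse 699. The loaded limb had the higher share in 3 of 4 CKO and 4 of 7 WT mice, with mean differences of 4.28 ± 6.62 and -0.04 ± 4.21 points (SD). Without mouse 688 the CKO mean was 7.05 ± 4.44 points, higher in 3 of 3 mice, and without mouse 691 it was 1.87 ± 5.56 points, higher in 2 of 3. Leaving out 1 WT mouse, the WT mean lay between -1.08 points without mouse 699 and 1.01 points without mouse 694. Marrow markers moved the other way in the libraries poorest in muscle. The 9 neutrophil genes summed to 11470 CPM in CKO non-loaded 691 against 4564 CPM in the loaded limb of the same mouse. In mouse 699 the neutrophil sum was 8251 CPM in the loaded and 17899 CPM in the non-loaded limb, and the erythroid sum of 8 genes was 813 and 2468 CPM. The part of marrow content in the muscle share was not tested.

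**Figure D1:**
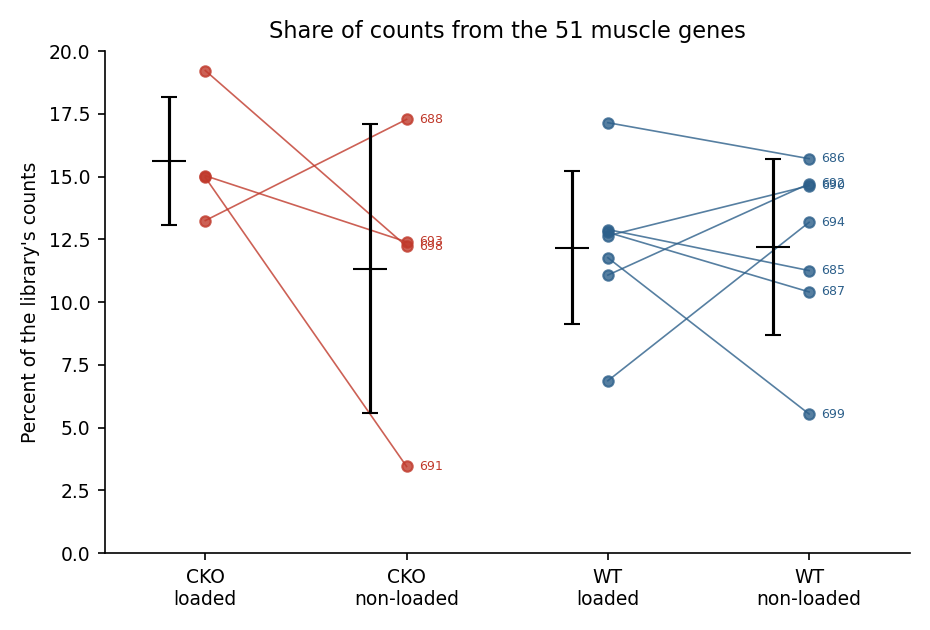
Percent of each library's counts that came from the 51 muscle genes (y axis) in the 4 groups (x axis). Each point is a library, lines join the limbs of a mouse (numbers), and black bars are means ± SD. CKO non-loaded 691 lies lowest at 3.46% and CKO loaded 698 highest at 19.2%.

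Ttn, the giant elastic protein that runs from Z-disc to mid-sarcomere and whose gene has 116825 bases of exon, carried 45.7% of all counts of the 51 genes. It had 68065, 60245, 65476 and 90861 CPM in the CKO loaded libraries (688, 691, 693, 698) and 92392, 13325, 51353 and 45374 CPM in the CKO non-loaded ones. In WT loaded libraries it lay between 25211 and 98139 CPM (median 55580) and in WT non-loaded libraries between 21797 and 91664 CPM (median 60525). Loaded and non-loaded libraries overlapped in both genotypes. Its log2 fold change, loaded over non-loaded, was 0.49 ± 0.49 (SE) in CKO and 0.01 ± 0.37 in WT mice, with edgeR quasi-likelihood adjusted p of 0.744 and 0.9998. Per kilobase of exon, however, Ttn ranked only 13th.

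Corrected for length, general muscle genes and genes of fast fibres led, and several genes of slow fibres came last. Acta1, the skeletal muscle actin of the thin filament, ranked first with a mean of 3121 CPM per kilobase over the 22 libraries, followed by Atp2a1, the fast-fibre calcium pump, with 2535, and Pvalb, a calcium buffer of fast fibres, with 1666. Mylpf, the fast regulatory myosin light chain, had 1519 and Myh1, the type 2X myosin heavy chain, 1340 CPM per kilobase. Ckm, the muscle creatine kinase, had 1236 and Mb, the oxygen-storing myoglobin, 1150. The lowest 6 of the 51 were slow or cardiac-type isoforms: Tnnt1 with 3.26, Tnnc1 with 3.11, Casq2 with 2.24, Myl3 with 2.04, Myh7 with 0.843 and Tnni1 with 0.599 CPM per kilobase. Each of these was detected in every library, at 0.557 CPM or more.

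**Figure D2:**
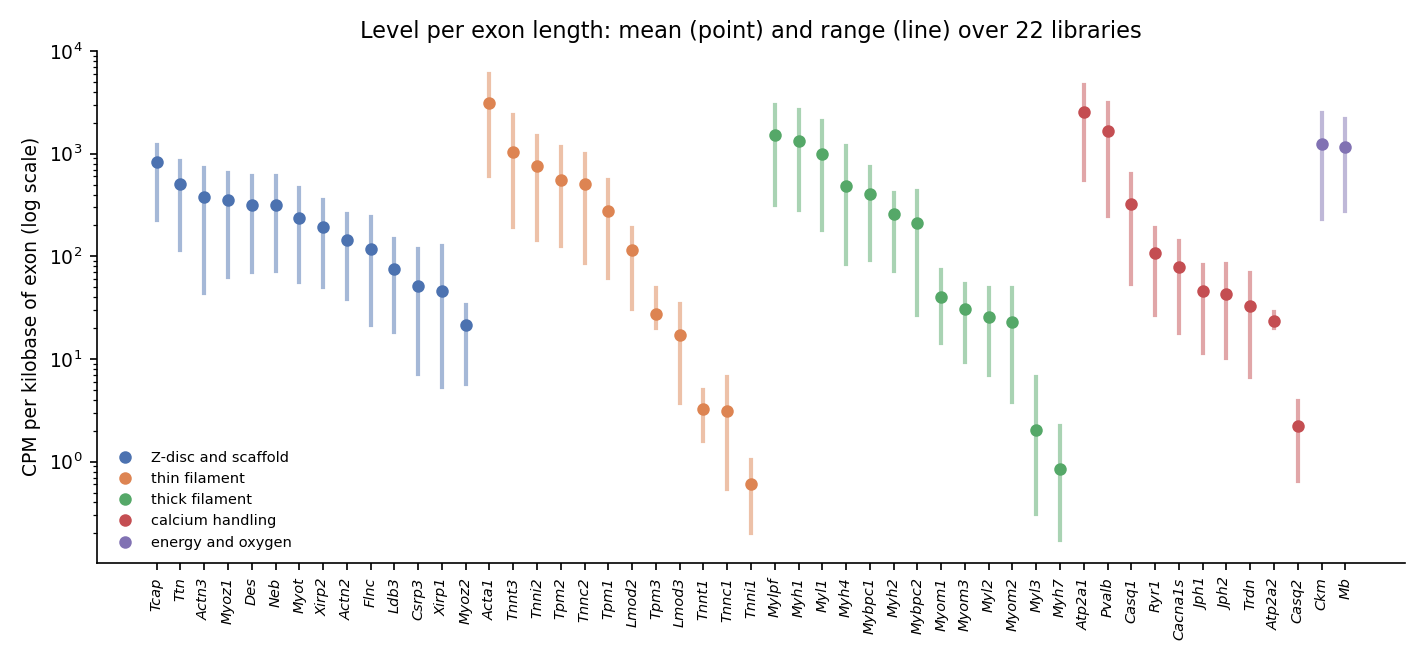
Level of each of the 51 genes in CPM per kilobase of exon (log axis), grouped by role. Points are means and lines the ranges over 22 libraries. Acta1 and Atp2a1 stand highest, and Tnni1 and Myh7 lowest.

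Promoters of 5 members are shown: those of Ttn, the marker gene, Acta1, the highest per kilobase, Myh4, the most variable of the fast myosin heavy chains, Flnc, which stood higher in loaded limbs, and Tpm3, which did not follow Ttn. They come from RefSeq on GRCm38.p6, 250 bases before to 50 after a start, where the table held 38 of the 51 members in 49 windows. The windows are Ttn chr2:76982498-76982797 (minus strand), Acta1 chr8:123894726-123895025 (minus), Myh4 chr11:67237562-67237861 (plus), Flnc chr6:29433006-29433305 (plus) and Tpm3 chr3:90072401-90072700 (plus), each 5′ to 3′ with the gene. Capitals mark matches, on either strand, to the CArG box of serum response factor, the MEF2 site and the MCAT element CATTCC of TEAD factors.
Ttn: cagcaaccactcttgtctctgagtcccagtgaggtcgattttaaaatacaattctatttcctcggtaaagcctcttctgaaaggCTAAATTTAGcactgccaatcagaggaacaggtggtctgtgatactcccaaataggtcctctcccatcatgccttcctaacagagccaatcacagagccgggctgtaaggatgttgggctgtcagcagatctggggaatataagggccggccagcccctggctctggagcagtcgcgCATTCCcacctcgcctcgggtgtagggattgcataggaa
Acta1: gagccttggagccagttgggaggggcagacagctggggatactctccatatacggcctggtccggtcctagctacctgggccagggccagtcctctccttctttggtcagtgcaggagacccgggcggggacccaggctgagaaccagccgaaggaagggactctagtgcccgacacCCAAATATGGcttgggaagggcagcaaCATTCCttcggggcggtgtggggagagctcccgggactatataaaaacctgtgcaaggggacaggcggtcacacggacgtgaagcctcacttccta
Myh4: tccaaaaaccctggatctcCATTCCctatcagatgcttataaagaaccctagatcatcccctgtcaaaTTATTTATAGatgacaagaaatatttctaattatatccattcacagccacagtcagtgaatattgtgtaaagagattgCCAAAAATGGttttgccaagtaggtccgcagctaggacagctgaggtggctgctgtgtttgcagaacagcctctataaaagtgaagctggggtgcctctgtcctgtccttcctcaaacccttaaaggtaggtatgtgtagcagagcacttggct
Flnc: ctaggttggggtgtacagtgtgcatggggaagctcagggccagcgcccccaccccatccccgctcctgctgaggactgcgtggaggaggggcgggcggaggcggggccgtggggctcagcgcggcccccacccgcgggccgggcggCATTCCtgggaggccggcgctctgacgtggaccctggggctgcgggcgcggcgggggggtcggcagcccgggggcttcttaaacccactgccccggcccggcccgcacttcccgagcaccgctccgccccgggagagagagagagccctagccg
Tpm3: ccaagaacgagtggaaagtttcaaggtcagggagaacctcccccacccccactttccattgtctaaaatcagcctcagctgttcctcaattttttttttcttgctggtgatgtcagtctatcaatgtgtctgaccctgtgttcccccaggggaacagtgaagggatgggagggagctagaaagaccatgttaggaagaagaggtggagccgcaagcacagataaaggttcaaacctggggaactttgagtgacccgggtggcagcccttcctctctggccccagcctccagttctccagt

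In order along each window, the capitals are MEF2 and MCAT in Ttn, CArG and MCAT in Acta1, MCAT, MEF2 and CArG in Myh4, and MCAT in Flnc. No matches overlap. The Tpm3 window holds none of the 3, and the 1 E-box (CANNTG) it holds is a motif found in 72.3% of all 32851 windows. Flnc and Tpm3 have 2 windows each, and the one nearest the annotated gene start is shown. The other Tpm3 window, chr3:90079271-90079570, also holds none of the 3 and 1 E-box. CArG matches lay in 6 of the 49 windows of members, 12.2%, and in 1.63% of all windows. MEF2 matches lay in 8 of them, 16.3%, and in 3.19% of all, and MCAT in 13, 26.5%, and in 14.7%. Several windows belong to 1 gene, and a match is only a run of letters.

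Fast genes dominated every slow and fast pair but 1. Expressed as the slow gene's percent of the pair per kilobase of exon, the median over 22 libraries was 0.152% for Myh7 against Myh4 (myosin heavy chains), 1.72% for Myl2 against Mylpf and 0.187% for Myl3 against Myl1 (myosin light chains). For the troponins it was 0.330% for Tnnt1 against Tnnt3, 0.0758% for Tnni1 against Tnni2 and 0.629% for Tnnc1 against Tnnc2. Casq2 made 0.698% of the pair with Casq1, the calcium store of the reticulum, and Myoz2 made 6.14% of the pair with Myoz1, Z-disc proteins that bind calcineurin. The exception was Mybpc1, the slow-type myosin-binding protein C, with 67.6% of the pair with Mybpc2 and a range of 59.6 to 77.3%. Mybpc1 had 1903 to 3360 CPM in CKO loaded, 418 to 2806 in CKO non-loaded, 953 to 2634 in WT loaded and 799 to 2430 CPM in WT non-loaded libraries. The values of Myl3 are uncertain, since its exons overlap Pth1r on the other strand, whose counts were 1007% of its own, and the sources used here do not state whether counting used strand.

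Myh1 was the leading myosin heavy chain in all 22 libraries. Of the 4 adult heavy chain genes, per exon length, Myh1 (type 2X) made 63.6 ± 2.26% (SD, n = 4) in CKO loaded libraries, against 63.6 ± 3.57% (n = 4) in CKO non-loaded libraries, and 65.7 ± 5.07% in WT loaded and 66.0 ± 8.62% in WT non-loaded ones (SD, n = 7 each). Myh4 (type 2B) made 23.2 ± 3.17, 23.6 ± 4.38, 21.04 ± 6.71 and 21.2 ± 9.97% in the same order of groups. Myh2 (type 2A) made 13.2 ± 2.96, 12.8 ± 3.10, 13.2 ± 3.08 and 12.8 ± 2.57%. Myh7, the slow and cardiac beta chain, made 0.0129 to 0.102% of the 4 in any library. Loaded and non-loaded groups overlapped for all 4, and the mean limb difference of Myh4 was -0.387 ± 6.39 percentage points in CKO and -0.171 ± 9.89 in WT mice (SD).

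The genes Myh2, Myh1 and Myh4 lie side by side on chromosome 11 (GRCm38, 67171027 to 67197517, 67200052 to 67224575 and 67238029 to 67260446, plus strand) and are alike in sequence, as is Myh7 to the cardiac gene Myh6, so the estimation of counts could have moved reads between them. Of the 3 fast chains, Myh4 had the widest spread. It made 8.23% of the heavy chains in WT non-loaded 685 and 39.6% in WT non-loaded 692, and in mouse 685 the loaded limb was also low, at 11.4%. Relative to the total of the 51 genes, the SD of Myh4 over the 22 libraries was 0.62 on the log2 scale, against 0.13 for Myh1 and 0.28 for Myh2, while that of the scarce Myh7 was 0.74.

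**Figure D3:**
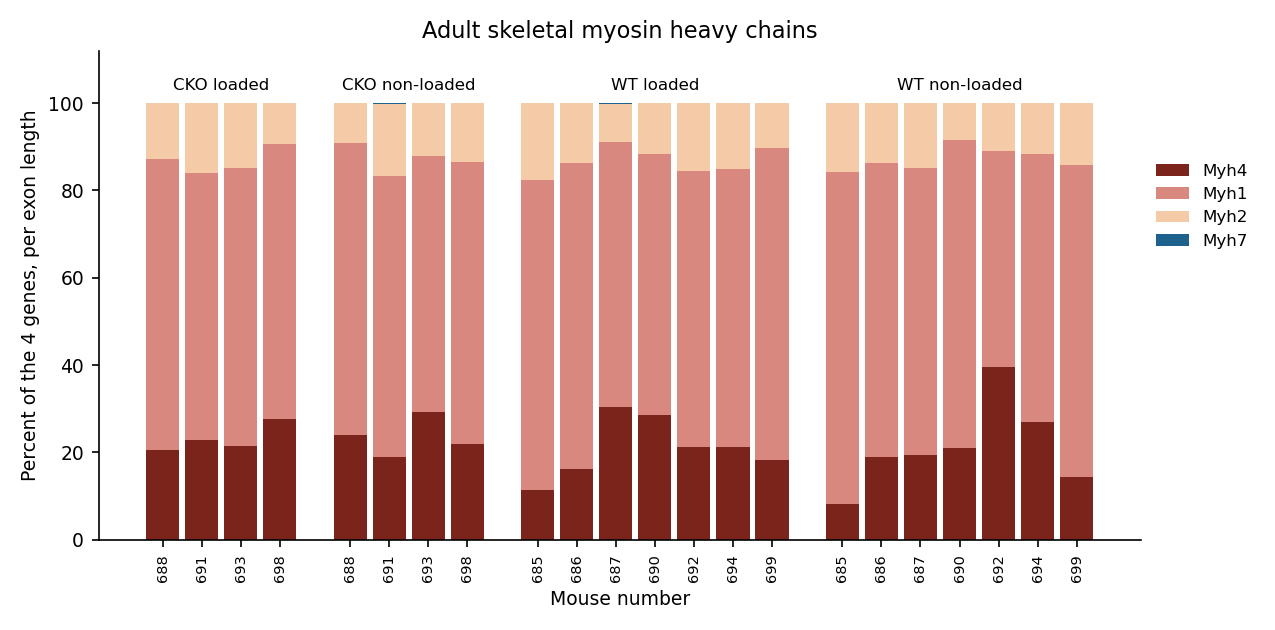
Composition of adult skeletal myosin heavy chain RNA in each library, as the percent of the 4 genes' counts per exon length (y axis), by group and mouse number (x axis). Myh1 is the largest part in all 22 libraries, Myh4 ranges between 8.23 and 39.6%, and Myh7, at 0.102% or less, is too thin to see.

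Scaffold genes other than those already described are given as means ± SD over the 4 or 7 libraries of a group. Actn3, the alpha-actinin of fast fibres, averaged 1496 ± 407 CPM in CKO loaded, 1004 ± 617.6 in CKO non-loaded, 893 ± 214 in WT loaded and 1117 ± 575 CPM in WT non-loaded libraries. Des, the intermediate filament desmin, averaged 1622 ± 474 CPM in CKO loaded, 1082 ± 568.02 in CKO non-loaded, 1088 ± 238 in WT loaded and 1128 ± 455 CPM in WT non-loaded libraries. The highest library was CKO loaded 698 for Actn3, at 2101 CPM, and the groups overlapped. Over all 22 libraries the ranges were Actn2 (the general muscle alpha-actinin) 147 to 971, Tcap (the titin cap) 216 to 1155, Ldb3 (a Z-disc adaptor) 111.8 to 893, Myot (myotilin) 124 to 1020.2, Xirp2 (the larger partner of Xirp1) 599.6 to 4261, Myoz1 (the fast-type calsarcin) 118 to 1234 and Myoz2 (the slow-type one) 19.3 to 114 CPM. Xirp2, unlike Xirp1, was higher in the loaded limb in only 7 of 11 mice relative to the muscle total, by a mean of 0.002 ± 0.229 on the log2 scale.

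The troponins of the thin filament followed the same division by fibre type, and 2 tropomyosins are given beside them. Acta1, the actin itself, averaged 6639.8 ± 1796 CPM in CKO loaded, 4529 ± 2649 in CKO non-loaded, 4241 ± 943 in WT loaded and 4442 ± 1718 CPM in WT non-loaded libraries. Tnnt3, the fast troponin T that binds tropomyosin, averaged 2366 ± 984 CPM in CKO loaded, 1597 ± 889 in CKO non-loaded, 1417 ± 308 in WT loaded and 1508 ± 622 CPM in WT non-loaded libraries. Tnnt1, its slow form, averaged 8.12 ± 1.39 CPM in CKO loaded, 6.45 ± 2.48 in CKO non-loaded, 7.25 ± 2.63 in WT loaded and 6.97 ± 1.36 CPM in WT non-loaded libraries. Tnni2, the fast inhibitory subunit, averaged 1514 ± 488 CPM in CKO loaded, 1102 ± 593 in CKO non-loaded, 974 ± 188 in WT loaded and 1083 ± 442 CPM in WT non-loaded libraries. Per kilobase, the fast genes of both subunits exceeded their slow partners in all 22 libraries. Tnni1, the slow inhibitory subunit, averaged 2.74 ± 0.943 CPM in CKO loaded, 1.79 ± 0.917 in CKO non-loaded, 2.199 ± 1.08 in WT loaded and 1.98 ± 0.714 CPM in WT non-loaded libraries. Tnnc2, the fast calcium-binding subunit, averaged 529.6 ± 181 CPM in CKO loaded, 398 ± 223 in CKO non-loaded, 369 ± 128 in WT loaded and 365 ± 155 CPM in WT non-loaded libraries. Tnnc1, the slow and cardiac one, averaged 4.64 ± 1.65 CPM in CKO loaded, 3.11 ± 2.08 in CKO non-loaded, 2.98 ± 1.24 in WT loaded and 2.77 ± 1.36 CPM in WT non-loaded libraries. Loaded and non-loaded libraries of a genotype overlapped for all of these. Tnnc2 shares exon sequence with Ube2c on the other strand, whose counts were 5.90% of its own. Tpm1, the alpha tropomyosin, averaged 2399 ± 856 CPM in CKO loaded, 1742 ± 959 in CKO non-loaded, 1494 ± 353 in WT loaded and 1748 ± 639 CPM in WT non-loaded libraries. The ranges over all libraries were Tpm2 (beta tropomyosin) 367 to 3385, Lmod2 (a leiomodin, which nucleates actin) 60.95 to 371 and Lmod3 (another leiomodin) 8.23 to 75.8 CPM.

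Light chains and M-band genes of the thick filament are set beside the heavy chains here. Myh1 averaged 11468 ± 3734 CPM in CKO loaded, 7619 ± 4457 in CKO non-loaded, 7849.5 ± 2325 in WT loaded and 8000.1 ± 2533 CPM in WT non-loaded libraries. Myh4 averaged 4106 ± 2023 CPM in CKO loaded, 2781 ± 1661 in CKO non-loaded, 2362 ± 999 in WT loaded and 2776 ± 2046 CPM in WT non-loaded libraries. Myh2 averaged 2570.5 ± 454 CPM in CKO loaded, 1541 ± 685 in CKO non-loaded, 1739 ± 557 in WT loaded and 1707 ± 488 CPM in WT non-loaded libraries. Loaded and non-loaded libraries of a genotype overlapped for all 3 genes. Mylpf, the fast regulatory light chain, averaged 2160.4 ± 675 CPM in CKO loaded, 1638 ± 888 in CKO non-loaded, 1342 ± 317 in WT loaded and 1559 ± 694 CPM in WT non-loaded libraries. Myl1, the fast essential light chain, averaged 2816 ± 1045 CPM in CKO loaded, 2067 ± 1183 in CKO non-loaded, 1717 ± 435 in WT loaded and 1970.2 ± 863 CPM in WT non-loaded libraries. Myl2, the slow regulatory light chain, averaged 58.9 ± 7.901 CPM in CKO loaded, 44.7 ± 22.7 in CKO non-loaded, 52.9 ± 25.9 in WT loaded and 44.1 ± 13.7 CPM in WT non-loaded libraries. Both fast light chains were highest in CKO loaded 698, and loaded and non-loaded libraries overlapped in each genotype. Myl3, the slow essential light chain, averaged 4.597 ± 2.08 CPM in CKO loaded, 2.92 ± 1.69 in CKO non-loaded, 5.35 ± 3.87 in WT loaded and 3.49 ± 1.79 CPM in WT non-loaded libraries. Myh7, the slow heavy chain, averaged 7.096 ± 1.37 CPM in CKO loaded, 4.08 ± 1.36 in CKO non-loaded, 10.1 ± 6.13 in WT loaded and 6.38 ± 3.33 CPM in WT non-loaded libraries. The ranges over all libraries were Mybpc2 (fast myosin-binding protein C) 97.8 to 1562, Myom1 (myomesin 1) 148 to 769, Myom2 (the M-band protein of fast fibres) 33.4 to 430.3 and Myom3 (that of intermediate fibres) 56.7 to 327 CPM. Counts of Myl12a, which overlaps Myom1 on the other strand, were 21.9% of those of Myom1.

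Among calcium genes the fast isoforms again led. Atp2a1, the fast calcium pump, averaged 11761 ± 3179 CPM in CKO loaded, 8045 ± 4819.6 in CKO non-loaded, 7942 ± 2015 in WT loaded and 8445 ± 3559.98 CPM in WT non-loaded libraries. Casq1, the fast calsequestrin, averaged 836 ± 270.2 CPM in CKO loaded, 581 ± 341 in CKO non-loaded, 553 ± 146 in WT loaded and 624 ± 240.97 CPM in WT non-loaded libraries. Casq2, the slow and cardiac calsequestrin, averaged 7.84 ± 2.64 CPM in CKO loaded, 5.95 ± 3.22 in CKO non-loaded, 5.31 ± 1.29 in WT loaded and 6.08 ± 2.73 CPM in WT non-loaded libraries. Per kilobase, Atp2a1 was the most abundant calcium gene in all 22 libraries. Ryr1, the release channel, averaged 3033 ± 779.9 CPM in CKO loaded, 2072 ± 1285 in CKO non-loaded, 2257 ± 619 in WT loaded and 2253 ± 779.6 CPM in WT non-loaded libraries. Pvalb, parvalbumin, averaged 2296 ± 637 CPM in CKO loaded, 1681 ± 990.1 in CKO non-loaded, 1423 ± 362 in WT loaded and 1756 ± 873 CPM in WT non-loaded libraries. The ranges over all libraries were Cacna1s (the voltage sensor) 117 to 922, Jph1 (junctophilin 1) 57.1 to 413, Jph2 (junctophilin 2) 43.2 to 359 and Trdn (triadin, a partner of the release channel) 62.7 to 637 CPM. For energy and oxygen, Ckm averaged 5008 ± 1614 CPM in CKO loaded, 3237 ± 1804 in CKO non-loaded, 3134 ± 707 in WT loaded and 3471 ± 1546 CPM in WT non-loaded libraries, and Mb averaged 2353 ± 681 CPM in CKO loaded, 1618 ± 833 in CKO non-loaded, 1553 ± 455 in WT loaded and 1569.8 ± 529.6 CPM in WT non-loaded libraries.

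The slow-to-fast balance did not part the groups. As the median over 9 pairs of the log2 CPM of the slow gene minus that of the fast one, the balance was -6.83 ± 0.29 (SD, n = 4) in CKO loaded libraries, against -6.90 ± 1.06 (n = 4) in CKO non-loaded libraries, and -6.99 ± 0.38 in WT loaded and -6.95 ± 0.65 in WT non-loaded libraries (SD, n = 7 each). The loaded limb stood higher in 2 of 4 CKO mice, with a mean limb difference of 0.07 ± 0.91, and in 3 of 7 WT mice, with -0.03 ± 0.61. In no comparison did the mean difference exceed the SD between mice. By pair, the number of mice with the higher ratio in the loaded limb ran between 1 and 3 of 4 in CKO and between 3 and 6 of 7 in WT mice. The count of 6 was reached by the myosin pairs Myh7 to Myh4, Myl2 to Mylpf and Myl3 to Myl1, whose mean log2 limb differences were 0.01 ± 1.19, -0.07 ± 0.73 and 0.10 ± 0.80 in CKO and 0.56 ± 0.83, 0.30 ± 0.69 and 0.69 ± 0.86 in WT mice (SD). No mean among the 9 pairs exceeded its SD in either genotype.

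Most members followed Ttn from library to library. Neb, nebulin, the ruler of the thin filament, had 1895 CPM in CKO non-loaded 691 and 15949 CPM in CKO loaded 698, an 8.41-fold range, yet the SD of its log2 ratio to Ttn was 0.21. Ryr1, the calcium release channel, had an SD of 0.24 to Ttn and Myh1 one of 0.27, and these 3 were the genes whose pattern was most like that of Ttn over the 22 libraries. By group, Neb lay at 8829 to 15949 CPM in CKO loaded, 1895 to 12417 in CKO non-loaded, 4019 to 12448 in WT loaded and 3642 to 10243 CPM in WT non-loaded libraries. The log2 CPM of the same 3 had SDs of 0.65, 0.65 and 0.67. The libraries come from 11 animals and all values share the library's depth and muscle content.

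Tpm3 and Atp2a2 did not follow Ttn. Tpm3, a tropomyosin used by slow fibres and also, in other forms, by most other cells, had 299 CPM in CKO non-loaded 691 and 290 CPM in WT non-loaded 699, the 2 libraries with the lowest Ttn, and 121 CPM in WT non-loaded 686. Atp2a2, the calcium pump of slow and heart muscle and of many other cells, lay between 122 and 175 CPM in all 22 libraries, a 1.44-fold range where Ttn spanned 7.37-fold. By group, Tpm3 lay at 142 to 172 CPM in CKO loaded, 123 to 299 in CKO non-loaded, 134 to 215 in WT loaded and 121 to 290 CPM in WT non-loaded libraries. Atp2a2 lay at 130 to 155 CPM in CKO loaded, 122 to 158 in CKO non-loaded, 132 to 175 in WT loaded and 123 to 149 CPM in WT non-loaded libraries, and the groups overlapped for both. The SD of their log2 ratio to Ttn was 1.03 and 0.75. Tpm3 was therefore 44.5% of its pair with Tpm1 per kilobase at most and 4.02% at least, and Atp2a2 was 0.480 to 4.43% of its pair with Atp2a1. Of the other members Myh4, Myl3 and Xirp1 had SDs of 0.76, 0.75 and 0.73 to Ttn.

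**Figure D4:**
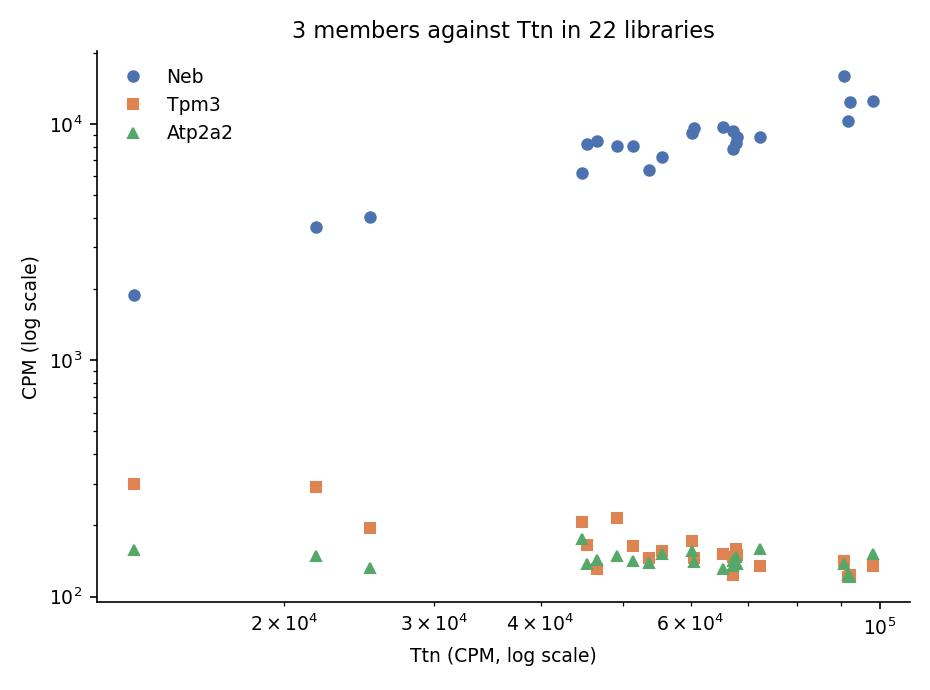
CPM of Neb, Tpm3 and Atp2a2 (y axis, log scale) against CPM of Ttn (x axis, log scale) in 22 libraries. Neb rises with Ttn between 1895 and 15949 CPM, Atp2a2 stays between 122 and 175 CPM, and Tpm3 is highest where Ttn is lowest.

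Loading and genotype were tested in 1 edgeR quasi-likelihood fit over all 18793 genes, with Benjamini-Hochberg adjustment over all of them and a threshold of 0.05. No member passed in any of the 5 comparisons (0 of 51 each). The background was as low: 0.016% of genes tested were called for loading in CKO (3 genes), 0.00532% for loading in WT (1 gene), and 0.0% for the difference between these effects and for genotype in loaded and in non-loaded bone. At an unadjusted p under 0.05 the members numbered 2 for loading in CKO (Xirp1 and Flnc), 1 for loading in WT (Xirp1) and 0 in the other 3. Counts of this size among 51 genes arise by chance at that cut, so they are no result about the members. DESeq2 and limma voom also called 0 members in these 5 comparisons. With the mouse as a block edgeR called 0 members, against 0.0266% of genes for loading in CKO and 0.0106% for loading in WT. For the mean of both loading effects, a comparison added after the data were seen, edgeR called 0 members against 0.0905% of genes, and against 0.0585% with the block; limma voom with quality weights called 1 member, Xirp1, against 0.474% of genes.

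Loading in CKO mice gave positive values for nearly all members, none past the test, and their size moved with single mice. In CKO mice 50 of 51 members had a log2 fold change above 0 for loaded over non-loaded, with a median of 0.55, against -0.01 over all genes tested and 48.3% of them above 0. Without mouse 691, whose non-loaded library held the least muscle RNA, the median was 0.25 with 49 members above 0. Without mouse 688 it was 0.91, also with 49, and without mice 686 and 688 together 0.91 with 49. Ttn itself had 0.26 ± 0.47 (SE) without mouse 691 and 0.98 ± 0.55 without mouse 688.

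In WT mice 18 of 51 were above 0, with a median of -0.06 against -0.01 over all genes. The sign changed when single mice were left out: the median was 0.03 without mouse 692 and 0.11 without mouse 694, with 35 and 40 members above 0, and it was -0.17 without mouse 699, with 9. Without mice 686 and 688 it was -0.11 with 11 members above 0. The difference of the loading effects, CKO minus WT, was above 0 for 49 members with a median of 0.62, and its lowest adjusted p over the members was 0.697 (edgeR). Its median was 0.97 without mouse 688, 1.03 without mice 686 and 688, and 0.34 without mouse 691.

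In loaded bone, CKO over WT, 46 members were above 0 with a median of 0.57, which was 0.36 without mouse 698. Both libraries whose Ltbp2 level went against their label are loaded ones and enter this comparison from opposite sides. A median without both of their mice is not given here. Over 35 settings the log2 fold change in loaded bone lay between -0.18 and 0.47 for Ttn and between 0.12 and 0.86 for Acta1. In non-loaded bone 17 were above 0 with a median of -0.06, but without mouse 691 46 were, with a median of 0.25, and without mouse 688 only 4, with -0.32. The non-loaded median was also above 0 without mouse 692 (0.05) or mouse 694 (0.02). The lowest edgeR adjusted p over the members was 0.601 in loaded and 0.976 in non-loaded bone. Members share the muscle content of a library, so these counts are not independent of each other.

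By role, the median log2 fold change for loading in CKO was 0.58 for the scaffold, 0.51 for the thin filament, 0.56 for the thick filament, 0.49 for calcium handling and 0.59 for energy and oxygen, with 14 of 14, 11 of 12, 13 of 13, 10 of 10 and 2 of 2 genes above 0. In WT mice these medians were -0.01, 0.01, -0.06, -0.14 and -0.08. For slow-fibre genes the median was 0.59 in CKO and 0.09 in WT mice, and for fast-fibre genes 0.46 and -0.20, again with 0 of 9 called in each. Without mouse 691 the CKO medians were 0.28 for the scaffold, 0.18 for the thin filament, 0.24 for the thick filament, 0.21 for calcium handling and 0.28 for energy and oxygen. Genes just outside the 51 were read in the same fit. Of 26 other sarcomere genes 26 were above 0 for loading in CKO (median 0.56) and 10 in WT (median -0.03), and of 12 genes of muscle energy supply 12 were above 0 in CKO (median 0.52) and 0 in WT (median -0.10), with 0 called. Without mouse 691 their CKO medians were 0.28 and 0.23, and without mouse 688 they were 0.95 and 0.93.

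4 members stood higher in every CKO loaded than in every CKO non-loaded library: Xirp1, Flnc, Csrp3 and Myh7. Over all genes tested 0.947% did so. In WT mice 0 members did, against 0.0426% of genes. 3 of the 4 are Z-disc genes: Xirp1 encodes an actin-binding protein of sites of sarcomere damage and growth, Flnc encodes filamin C, an actin cross-linker of the Z-disc that gathers at such sites with it, and Csrp3 encodes muscle LIM protein, held to take part in sensing strain.

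Xirp1 (ENSMUSG00000079243, chromosome 9, 120013755 to 120023598, GRCm38) had 256, 331, 384 and 501 CPM in the CKO loaded libraries of mice 688, 691, 693 and 698, against 169, 31.5, 175 and 183 CPM in their non-loaded ones. In WT loaded libraries it lay between 99.5 and 744 CPM (median 352) and in WT non-loaded libraries between 69.8 and 306 CPM (median 173). The CKO groups did not overlap and the WT groups did. The loaded limb was higher in 10 of 11 mice, WT mouse 694 being the exception. Its log2 fold change was 1.40 ± 0.53 (SE) in CKO mice, edgeR adjusted p = 0.739, and 1.05 ± 0.40 in WT mice, adjusted p = 0.9998, so neither passed. Without mice 686 and 688 the values were 1.65 ± 0.65 (edgeR adjusted p = 0.366) and 1.15 ± 0.45 (adjusted p = 0.999).

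Flnc (chromosome 6, 29433256 to 29461883) had 1188, 1376, 1396 and 1942 CPM in the CKO loaded libraries and 1126, 200, 815 and 830 CPM in the CKO non-loaded ones. In WT loaded libraries it had 503 to 2295 CPM (median 1239) and in WT non-loaded ones 345 to 1485 CPM (median 853). The log2 fold change was 0.99 ± 0.45 in CKO mice (edgeR adjusted p = 0.739) and 0.63 ± 0.34 in WT mice (adjusted p = 0.9998). Csrp3 had 160, 163, 191 and 177 CPM in the CKO loaded and 94.8, 18.9, 99.6 and 125 CPM in the CKO non-loaded libraries, and 84.2 to 315 CPM in WT loaded against 38.9 to 207 CPM in WT non-loaded ones. Its log2 fold change was 1.03 ± 0.50 in CKO and 0.61 ± 0.38 in WT mice, with edgeR adjusted p of 0.739 and 0.9998. Of the other genes with the 5 smallest p, Myh2 and Myom3, an M-band protein, had 0.74 ± 0.36 and 0.64 ± 0.34 in CKO mice, and Atp2a2 and Myh7 had 0.14 ± 0.08 and 0.65 ± 0.39 in WT mice.

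Set against the muscle content of each library, Xirp1 and Flnc were higher in the loaded limb of every mouse, though by unequal amounts. Per 1000 Ttn counts, Xirp1 had 3.76, 5.50, 5.87 and 5.51 counts in the CKO loaded and 1.83, 2.36, 3.40 and 4.04 in the CKO non-loaded libraries, and 2.55 to 15.1 in WT loaded against 1.83 to 3.98 in WT non-loaded ones. Relative to the total of the 51 genes, the loaded limb was higher for both genes in 11 of 11 mice, and in 9 of 9 without mice 686 and 688. Over all 18793 genes tested on the same scale 0.0639% were higher in 11 of 11 mice, that is 12 genes, of which 2 are members, and 0.0745% in 9 of 9. On the library scale 32 of the 18793 genes were higher in 11 of 11 mice, and 0 of them are members. There Flnc, like Xirp1, was lower in the loaded limb of WT mouse 694, at 503 against 873 CPM. The mean limb difference of Xirp1 was 0.86 ± 0.25 in CKO (SD, n = 4) and 0.96 ± 0.77 in WT mice (SD, n = 7), with single mice between 0.31 (694) and 2.27 (699). That of Flnc was 0.43 ± 0.11 and 0.63 ± 0.53, between 0.13 in mouse 686 and 1.59 in mouse 699. Csrp3 was higher in 9 of 11 mice, with 0.54 ± 0.70 and 0.62 ± 0.67.

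The same scale in edgeR, with the 51 genes' total as library size, gave log2 fold changes for Xirp1 of 0.84 ± 0.41 (SE) in CKO and 1.10 ± 0.31 in WT mice, with adjusted p = 0.0915 and adjusted p = 0.99995. For Flnc they were 0.43 ± 0.32 and 0.69 ± 0.24, with edgeR adjusted p of 0.230 and 0.99995. This scaling moved the median of all genes to -1.15 for loading in CKO and -0.05 in WT, so that the members' median stood at -0.01 in both. The adjustment runs over all genes, so an adjusted p on this scale also reflects that shift. The adjusted p of Xirp1 and Flnc therefore cannot be compared between genotypes. On it 0 members were called with all mice, against 0.0% of genes. Without mouse 688, or without mice 686 and 688, Tpm3 and Atp2a2 were called lower in CKO loaded bone, against 65.4% and 64.6% of all genes tested, which were called too. With all mice, 22 of 51 in CKO and 21 of 51 in WT mice were above 0. The difference of the loading effects, CKO minus WT, was -0.27 ± 0.52 for Xirp1 and -0.26 ± 0.40 for Flnc, adjusted p = 0.667 and adjusted p = 0.586 by edgeR.

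**Figure D5:**
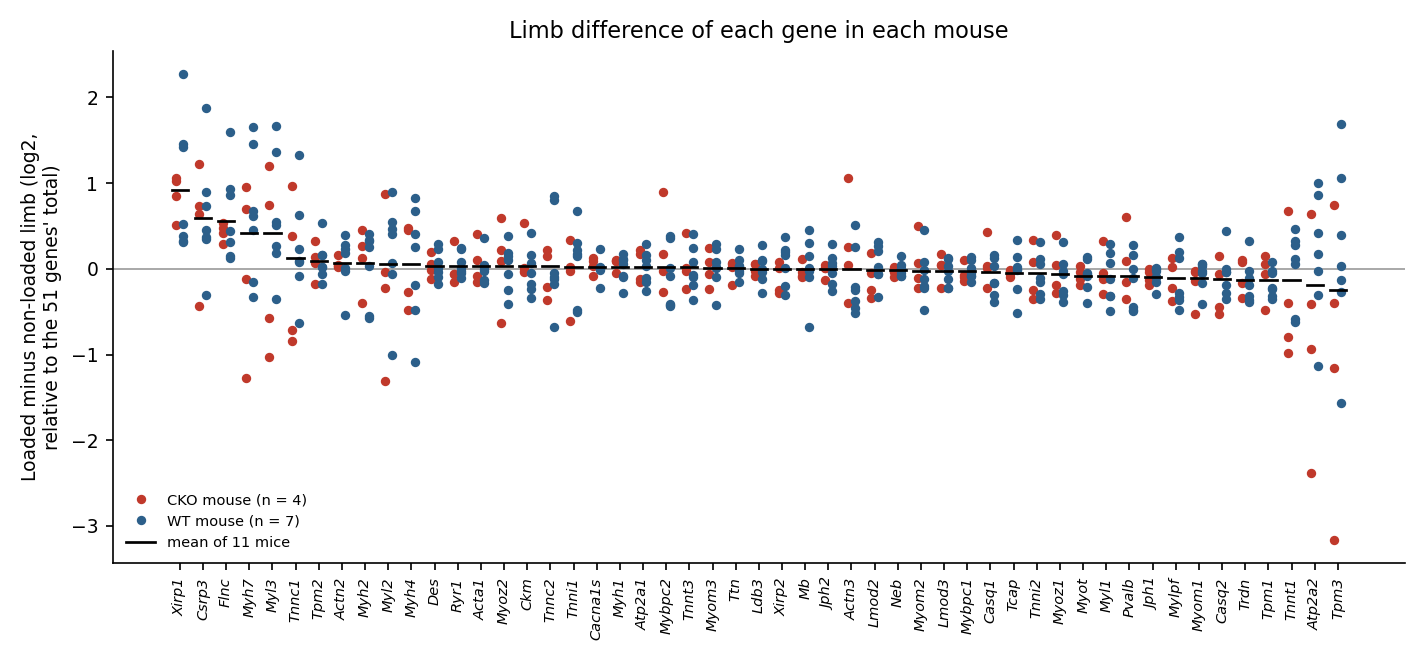
Loaded minus non-loaded limb of each mouse (y axis, log2 relative to the total of the 51 genes) for each gene (x axis, ordered by mean). Red points are 4 CKO mice, blue points 7 WT mice and black lines the mean of 11. Xirp1 and Flnc lie above 0 in 11 of 11 mice, and Tpm3 and Atp2a2 spread most widely below 0.

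The other members differed in how closely they kept to the muscle total. The SD over 11 mice of the log2 limb difference was under 0.3 for 33 of the 51 members, and 0.5 or more for 10. The widest were Tpm3 at -0.25 ± 1.34 and Atp2a2 at -0.19 ± 1.004, followed by Myh7, Myl3, Myl2 at 0.06 ± 0.71 and Tnnc1 at 0.13 ± 0.69. Among the close ones, Neb had a mean limb difference of -0.01 ± 0.07 and Ttn one of 0.01 ± 0.12 on the log2 scale over 11 mice (SD). Ttn made 45.7% of the total it was set against, so its closeness is in part built in. Neb made 6.47% and Myh1 6.59% of that total. Myh1 differed by 0.02 ± 0.13 and Cacna1s, the voltage sensor of the tubules, by 0.02 ± 0.12. Jph1, a junctophilin that ties the tubules to the reticulum, was lower in the loaded limb in 9 of 11 mice, by a mean of -0.09 ± 0.09. Myh7 and Myl3 had positive means of 0.42 ± 0.84 and 0.41 ± 0.83 but were higher in only 7 and 8 of 11 mice.

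Genes of stretched or wasting muscle were read from a separate list of 7. Ankrd1 and Ankrd2, ankyrin proteins of the I-band titin complex that stretch is known to raise, had the 2 smallest p of the list for loading in both genotypes and are given for that reason. Ankrd2 had 31.0, 36.0, 34.8 and 32.9 CPM in CKO loaded against 13.7, 2.50, 12.8 and 20.6 CPM in CKO non-loaded libraries, which do not overlap (a pattern of 0.947% of all genes tested), and 17.9 to 58.9 CPM in WT loaded against 8.42 to 36.2 CPM in WT non-loaded ones. Its log2 fold change was 1.45 ± 0.50 in CKO and 0.77 ± 0.37 in WT mice, edgeR adjusted p of 0.739 and 0.9998. Ankrd1 had 1.08 ± 0.71 and 1.83 ± 0.55, where WT loaded 699, with 121 CPM, stood above the 41.5 CPM of the next WT loaded library. The values of both genes are on the library scale, where nearly all members were above 0 for loading in CKO. Relative to the muscle total, neither gene was among the 12 genes higher in 11 of 11 mice. The other 5 had no common direction. Trim63 and Fbxo32, ubiquitin ligases of muscle wasting, had log2 fold changes of 0.44 ± 0.52 and 0.18 ± 0.39 in CKO and 0.08 ± 0.39 and -0.26 ± 0.30 in WT mice (SE). Mstn, the growth inhibitor myostatin, had 0.52 ± 0.51 in CKO and -0.25 ± 0.38 in WT mice, Gadd45a -0.02 ± 0.37 and 0.26 ± 0.28, and Runx1 -0.06 ± 0.15 and 0.16 ± 0.11. 0 of the 7 genes were called. Klhl40, a stabiliser of thin filament proteins on the list of other sarcomere genes, was also higher in 11 of 11 mice relative to the muscle total.

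Developmental and regeneration genes were read from another list. Its 7 genes, embryonic myosins, the fetal receptor subunit and myogenic factors, summed to 27.6 to 64.2 CPM in CKO loaded, 13.1 to 37.5 in CKO non-loaded, 19.2 to 39.2 in WT loaded and 15.6 to 33.3 CPM in WT non-loaded libraries. Myod1, a myogenic factor and the most abundant of the list on average, lay between 1.501 and 41.6 CPM, and its highest value, in CKO loaded 698, was most of that library's sum of 64.2 CPM. Myod1 averaged 18.8 ± 15.2 CPM in CKO loaded, 10.3 ± 7.32 in CKO non-loaded, 10.002 ± 3.90 in WT loaded and 8.65 ± 3.77 CPM in WT non-loaded libraries. Myh3, the embryonic myosin heavy chain, lay between 2.33 and 12.8 CPM and Myog, a factor of muscle differentiation, between 0.325 and 2.91 CPM. Of the 5 genes of the list that could be tested 0 were called. Smooth muscle markers summed to 204 to 313 CPM in CKO loaded, 106 to 244 in CKO non-loaded, 144 to 316 in WT loaded and 114 to 319 CPM in WT non-loaded libraries, and their part in Flnc, Des and Tpm1, which such cells also express, was not tested.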

How the data were processed

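RNA was extracted from ulnae milled in Trizol and sequenced from 4 ng with a stranded kit for total RNA, per the labels' protocols. STAR, RSEM and the build GRCm38 are named in the submitters' processing notes; no source used here states versions, annotation or strand setting. The deposited files hold the authors' expected counts per gene, which are whole numbers and were rounded with no change.

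Groups came from the labels. edgeR 4.0.16 (limma 3.58.1, R 4.3.3) was run on 18793 genes kept by filterByExpr (minimum count 10), with TMM scaling and glmQLFit and glmQLFTest on 4 group means (18 residual degrees of freedom; the common biological CV was 0.271). Benjamini-Hochberg adjustment ran over all genes tested, with calls under 0.05. The standard error is the log2 fold change over the square root of F. Log2 CPM used a prior count of 2; values relative to the members' total or to Ttn used 0.5 added counts. GENCODE M21, on GRCm38, gave exon lengths, positions and exon overlaps. Counting error is small at these depths for most members, so the spread between animals sets their precision. It is larger for scarce slow-fibre genes. Their lowest counts in a library were 16 for Tnnc1, 25 for Myl3, 26 for Tnni1 and 43 for Myh7. The fits were tested on simulated data, drawn gene by gene without a mouse effect or shared muscle content. That test does not cover these features of the data.

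The members and lists were chosen with earlier results of these data known. Named genes were a set of 31 members, every member called and the 5 smallest p per comparison. Samples are paired, since a mouse number names both limbs of an animal: their deviations from group means correlated at -0.250 to 0.416 over the 11 mice, over 0.1 in 7. Alternatives were other scalings, filters, DESeq2 1.42.0, limma voom, the mouse as a block, and leaving out mice. The mean loading effect of both genotypes, the block or left-out mice together with the members' total, and the muscle share and other lists without single mice were added after seeing the data.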

Additional observations from a re-analysis of the deposited data

Results flagged for a closer look

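Of 152 sets of values from 1 group (shares, CPM of named genes, isoform percentages and the slow-to-fast balance), 13 held a library whose gap to the next exceeded Dixon's 95% limit for its group size. Chance flags about 1 set in 20, and the sets of 1 library move together.

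In CKO loaded 698, Neb was 15949 CPM (the next library 9689), Actn3 was 2101 CPM (the next library 1365), Myh1 was 17014 CPM (the next library 9995), Mylpf was 3160 CPM (the next library 1910), Myl1 was 4366 CPM (the next library 2411), Tnnc2 was 798 CPM (the next library 477), Casq1 was 1238 CPM (the next library 734), Pvalb was 3251 CPM (the next library 2011). In CKO non-loaded 691, Xirp1 was 31.5 CPM (the next library 169), Myh2 was 519 CPM (the next library 1783), Tnni2 was 216 CPM (the next library 1355). In WT loaded 692, Myl3 was 13.6 CPM (the next library 6.12). In WT non-loaded 699, Tpm3 was 290 CPM (the next library 148). 

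CKO loaded 698 is the library with the largest muscle share, 19.2%, and CKO non-loaded 691 the one with the smallest, 3.46%. Myl3 overlaps Pth1r on the other strand, and the 2 could not be told apart here.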

How the results depend on the processing

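The count of members called stayed at 0 in the 5 comparisons of the report under each of the other scalings, filters, tools and sample sets listed above for TMM-scaled libraries, and with the members' total over all mice, including the mouse as a replicate block (0 for loading in CKO, in WT and for their difference; 0 as a random effect for genotype) and without each mouse in turn (lowest 0.0 and highest 0.0). With the members' total as library size and without mouse 688, or without mice 686 and 688, 2 members were called for loading in CKO: Tpm3 at -2.23 and Atp2a2 at -1.63, reversed for Atp2a2; without mice 688 and 691 together 0 were called, with 2 CKO mice left. The mean loading effect of both genotypes, added after seeing the data, gave 0 members in edgeR, where Xirp1 had 1.23 ± 0.33 and adjusted p = 0.523, and 1 in limma voom with quality weights, Xirp1 at 0.96 with adjusted p = 0.0441; over all 36 settings its adjusted p lay between 0.0441 and 0.99998. Xirp1 and Flnc kept a positive log2 fold change in 37 of 37 settings for loading in CKO (0.68 to 1.65 and 0.39 to 1.36) and in WT (0.66 to 1.24 and 0.32 to 0.78). So did Csrp3 (0.14 to 1.28 in CKO and 0.25 to 0.88 in WT), while Myh1 did in CKO only and Myh7 and Myl3 in WT only. The settings share mice, so such counts are not independent.

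Without Ttn and Neb the share of counts was 7.86% in CKO loaded, 5.61% in CKO non-loaded, 5.55% in WT loaded and 5.72% in WT non-loaded libraries, by construction. The share of all members, Ttn and Neb included, was also taken leaving out 1 mouse. In the same order of groups it lay between 14.4 and 16.4%, 9.36 and 14.0%, 11.3 and 13.1%, and 11.6 and 13.3%. The slow-to-fast difference in loaded bone, CKO minus WT, was 0.16 with the median over the pairs and -0.33 with the mean; the cause was not tested. Without 1 mouse it lay between 0.04 and 0.27, in non-loaded bone between -0.30 and 0.47, for loading between -0.34 and 0.30 in CKO and between -0.17 and 0.09 in WT, and for their difference between -0.31 and 0.33. Of 6720 values of 32 single genes under other settings, 1384 changed sign without being called in either. With 4 CKO mice, limb differences within the SD between animals could not be resolved.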
